A study of Mus musculus with 6 samples.

Results

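The genes described here are Nfe2l2, which encodes the transcription factor NRF2, Keap1, which encodes its repressor, and 8 antioxidant genes known as NRF2 targets: Gclc, Gclm, Slc7a11, Gsr, Txnrd1, Srxn1, Nqo1 and Cat. The heme-degrading enzyme gene Hmox1, another NRF2 target, was kept apart. The list is of symbols, and an array transcript cluster was taken where the platform annotation gave exactly 1 symbol and that symbol was on the list. All 10 of 10 genes were found, each with 1 cluster, among 16583 genes measured by name. The rule uses no measured value, but the list was chosen with earlier results of these data known.

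In unstressed cells KEAP1 brings NRF2 to a CUL3 ubiquitin ligase, and NRF2 is degraded soon after it is made. Oxidants and electrophiles modify cysteines of KEAP1, NRF2 then accumulates, pairs with a small MAF protein and binds antioxidant response elements in its target genes. The targets make glutathione, recycle oxidised thiols, detoxify quinones and remove peroxides, which limits oxidative damage, to which neurons are sensitive. NRF2 activity is set mainly through the stability of the protein, so the message of its targets is a common readout of the pathway.

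The samples were Neuro2a cells, a mouse neuroblastoma line. The 3 USFKD samples had been transfected with vectors expressing microRNA-based RNA interference (USF1,2-RNAi, pcDNA6.2-GW/EmGFP-miR system) against Usf1 and Usf2, the genes of the E-box-binding transcription factors USF1 and USF2. The 3 Control samples had received an empty vector. Transfection was transient with a lipid reagent, and no sorting or selection of transfected cells, time after transfection or oxidant treatment is given in the labels. Each sample was hybridised to 1 Affymetrix Mouse Gene 1.0 ST array. The labels call the samples of a group biological replicates without naming separate cultures, and the p-values then cover only how far these samples vary, a spread that could be technical.

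The deposited values were read as log2 signals relative to the median of each cluster over the 6 arrays, with the log base inferred. They compare a gene between arrays, keep no level, and do not allow one gene's abundance to be set against another's. Because of the centring, the middle pair of the 6 ordered values of a single cluster, such as each of the 10 genes has, are mirror images around 0. Rounding steps of the numbers still separated clusters by their log2 signal before centring. Those between 8 and 16 on all arrays were called brighter, and those between 4 and 8 on any array dimmer. Of the 10 genes 7 lay in the brighter class and 3, Keap1, Srxn1 and Nqo1, in the dimmer one. Over all 16583 genes 7320 lay in the brighter class. Of the neuroblastoma markers 12 of 17 measured were in the brighter class, among them Tubb3, Stmn2, Chga, Phox2a, Hand2 and Gata3. Dbh, Th, Nefl, Nefm and Syp were in the dimmer class. All measured markers of glia (8), fibroblasts (7) and macrophages or blood (5) were in the dimmer class, and 7 of 9 endothelial and epithelial markers. The median changes (USFKD minus Control) of these 4 marker lists were 0.076, 0.074, 0.057 and 0.0041. In limma 0 of their genes were at an unadjusted p under 0.05, where 4.25% of all genes were. The median of the glial markers lay between -0.014 and 0.146 on the USFKD arrays and between -0.041 and -0.0041 on the Control arrays. The fibroblast median lay between -0.090 and 0.241 on the USFKD arrays and between -0.072 and 0.035 on the Control arrays. The macrophage and blood median lay between 0.0088 and 0.052 in USFKD and between -0.058 and -0.0088 in Control. The endothelial and epithelial median lay between -0.049 and 0.084 in USFKD and between -0.069 and 0.021 in Control. For each of these 4 lists the highest USFKD median was that of USFKD array 2. On that array all clusters of the dimmer class had a median of 0.071 and those of the brighter class -0.028. The neuroblastoma markers had a median change of 0.017, and their median lay between -0.020 and 0.0030 in USFKD and between -0.013 and 0.0018 in Control. Of them 2 were lower at an unadjusted p under 0.05, Dbh, which makes noradrenaline (-0.247 ± 0.051, SE, limma adjusted p = 0.759), and the granin Chgb (-0.147 ± 0.055, 0.996). Both are named here after their values were seen. Over all genes 2.65% were lower at that p. The USFKD and Control arrays did not overlap for 5 of the 17 markers, 2 higher and 3 lower, against 10.3% of all genes. The part of cell type or cell state in the results below was not tested.

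Both RNA interference targets had lower values on every USFKD array than on any Control array. Usf1 had values of -0.281, -0.180 and -0.262 on the USFKD arrays and 0.180, 0.322 and 0.429 on the Control arrays, a change of -0.55 ± 0.07 (SE, n = 3 per group). Usf2 had -0.220, -0.132 and -0.118 on the USFKD arrays and 0.118, 0.276 and 0.266 on the Control arrays, a change of -0.38 ± 0.06 (SE). The adjusted p in limma, over all genes, was 0.320 and 0.348, and the exact two-sided permutation p was 0.10 for each, the smallest that 3 against 3 arrays allow. The folds were 0.682 and 0.770. The arrays read bulk RNA, in which fewer cells of a type and less RNA per cell cannot be told apart. The standard deviation over all clusters was 0.159 on USFKD array 2, against 0.0531 to 0.0780 on the other 5 arrays.

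The comparison asked whether NRF2, its repressor and its targets differed between USFKD and Control cells, and whether the targets moved together. None of the 10 genes passed an adjusted p of 0.05 in limma (lowest adjusted p 0.996), where 0.00603% of all genes passed (1 gene). Usf1 and Usf2, whose changes were larger, did not pass it either (limma adjusted p 0.320 and 0.348). The changes of the 10 genes, USFKD minus Control, lay between -0.112 for Nqo1 and 0.090 for Gclm on the log2 scale. They were above 0 for 5 genes and below 0 for the other 5. Of the 8 target genes alone, 4 were above 0 and 4 below. Of all genes 8221 were above 0 and 8362 below. The median change was -0.0036 for the 10 genes and -0.00066 over all genes, and the median size without sign was 0.060 and 0.040. The 95% intervals of the 10 genes, each taken alone in limma, spanned folds no lower than 0.840 (Nqo1) and no higher than 1.15 (Gclm), and 9 of the 10 included no change. Fold changes can be compressed on arrays, so the changes in RNA may be larger than these intervals state.

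At an unadjusted p under 0.05 limma counted 1 of the 10 genes, Keap1, which was lower, where 4.25% of all genes reached it (1.6% higher, 2.65% lower). The count was 0 without USFKD array 1, USFKD array 3 or Control array 3, where 569, 1228 and 369 of all 16583 genes reached that p. It was 2 (Keap1 and Nqo1) without Control array 1, where 779 of all genes did. Without Control array 2 it was again 1, but that gene was Cat, and 433 of all genes did. With all 6 arrays 705 of all genes did. The 3 USFKD arrays lay apart from the 3 Control arrays for 3 of the 10 genes, Gclm and Cat higher and Keap1 lower. Over all genes 10.3% were apart in this way, 4.33% higher and 5.95% lower. With 10 genes these counts describe the genes and carry no test.

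**Figure D1:**
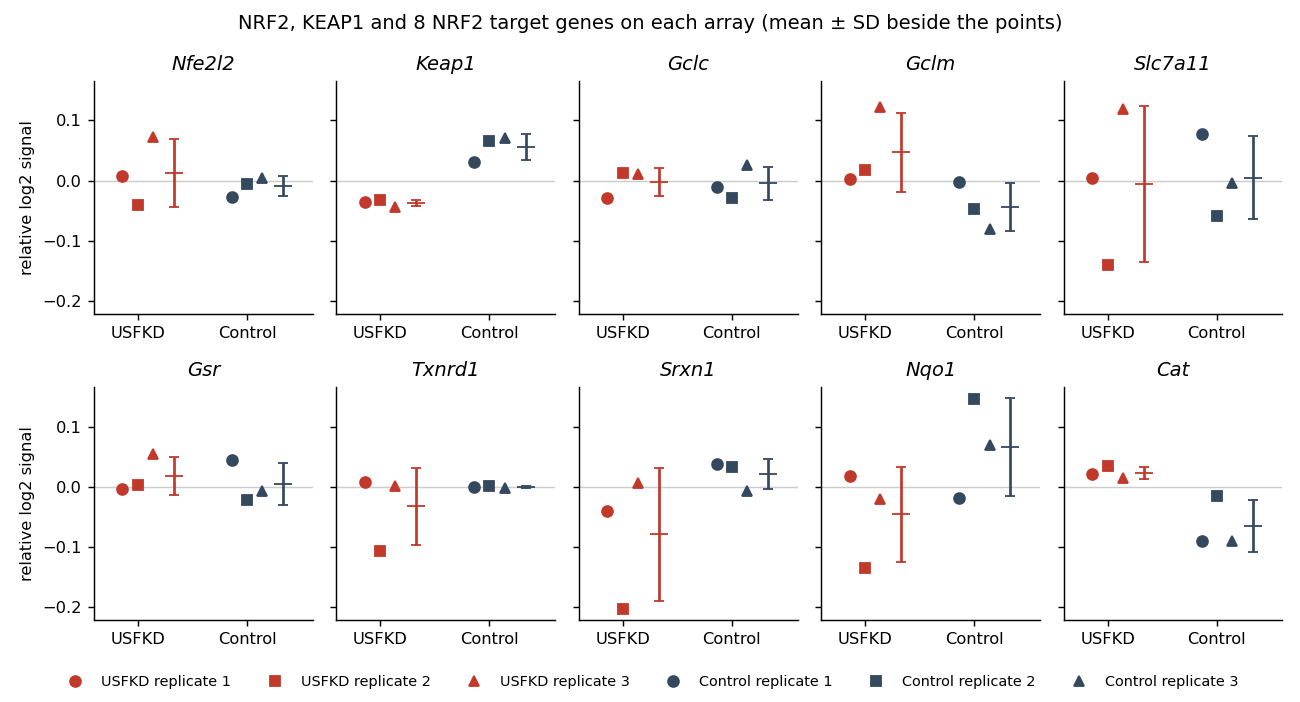
Relative log2 signal (vertical axis) of Nfe2l2, Keap1 and 8 NRF2 target genes on the 3 USFKD arrays (red) and the 3 Control arrays (dark blue); symbols mark the replicate number and bars the mean ± SD of each group. Keap1, Gclm and Cat have no overlap between the groups, and the USFKD value of replicate 2 is the lowest of the 6 arrays for 5 genes.

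The factor and its repressor were measured first. Nfe2l2 (cluster 10483809) had values of 0.0074, -0.040 and 0.072 on the USFKD arrays and -0.027, -0.0050 and 0.0050 on the Control arrays. The USFKD values lay on both sides of the Control values. The change was 0.022 ± 0.045 (SE, n = 3 per group; 1.02-fold, 95% interval 0.944 to 1.09), with a limma adjusted p of 0.996, and it was -0.0072 without USFKD array 3 and 0.049 without USFKD array 2. This is the message only, and NRF2 protein was not measured.

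Keap1 (cluster 10591482) had values of -0.036, -0.032 and -0.043 on the USFKD arrays and 0.032, 0.065 and 0.072 on the Control arrays. All USFKD values were below all Control values, with a gap of 0.063 between the groups, and the USFKD arrays were close to each other (SD 0.0057, against 0.021 in Control). The change was -0.093 ± 0.039 (SE; 0.938-fold, 95% interval 0.880 to 0.998). Its unadjusted p was 0.0459 and its adjusted p in limma 0.996, so it did not pass over all genes. Of all genes, 84.4% had a change of this size or less. Leaving out 1 array at a time gave -0.105 to -0.085.

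Glutathione synthesis is fed by the cystine importer and limited by glutamate-cysteine ligase. Gclc, the catalytic subunit of the ligase (cluster 10587266), had -0.028, 0.013 and 0.011 on the USFKD arrays and -0.011, -0.028 and 0.026 on the Control arrays. The groups overlapped fully, and the change was 0.0030 ± 0.041 (SE; 95% interval 0.938- to 1.07-fold, limma adjusted p = 0.999). Its sign turned without USFKD array 2 (-0.0043), USFKD array 3 (-0.0030), Control array 1 (-5.5e-05) or Control array 2 (-0.0089).

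Gclm, the modifier subunit of the same ligase (cluster 10495763), had 0.0022, 0.017 and 0.122 on the USFKD arrays and -0.0022, -0.047 and -0.081 on the Control arrays. The groups did not overlap, but the gap was only 0.0044, and 1 USFKD array, replicate 3, was far above the other two. The change was 0.090 ± 0.049 (SE; 1.06-fold, 95% interval 0.983 to 1.15, limma adjusted p = 0.996), and it was 0.053 without USFKD array 3. Whether the 2 subunits differed in their change was not tested.

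Slc7a11 encodes the transport subunit of system xc-, which imports cystine in exchange for glutamate (cluster 10498024). It had 0.0042, -0.140 and 0.120 on the USFKD arrays and 0.078, -0.059 and -0.0042 on the Control arrays. Of the 10 genes it varied most within the USFKD group (SD 0.130, against 0.069 in Control), and the USFKD arrays held both its lowest and its highest value. The change was -0.010 ± 0.072 (SE; 0.993-fold, 95% interval 0.885 to 1.11, limma adjusted p = 0.997). The sign turned without USFKD array 2 (0.057) or Control array 1 (0.026), and with quantile normalization (0.018).

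Enzymes that return oxidised thiols to the reduced state came next. Gsr, glutathione reductase (cluster 10571274), had -0.0028, 0.0028 and 0.055 on the USFKD arrays and 0.045, -0.022 and -0.0075 on the Control arrays. The groups overlapped, with a change of 0.013 ± 0.043 (SE; 1.01-fold, 95% interval 0.942 to 1.08, limma adjusted p = 0.996). The sign turned without USFKD array 3 (-0.0049) or Control array 2 (-0.00033).

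Txnrd1, the cytosolic thioredoxin reductase (cluster 10365260), had 0.0079, -0.106 and 0.0019 on the USFKD arrays and -0.00098, 0.00098 and -0.0020 on the Control arrays. The other 5 arrays lay between -0.0020 and 0.0079, and USFKD array 2 alone was low. The change was -0.031 ± 0.046 (SE; 0.978-fold, 95% interval 0.908 to 1.05, limma adjusted p = 0.996), and it was 0.0056 without USFKD array 2.

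Srxn1, sulfiredoxin, which reactivates overoxidised peroxiredoxins (cluster 10477061), had -0.039, -0.203 and 0.0063 on the USFKD arrays and 0.038, 0.033 and -0.0063 on the Control arrays. USFKD array 2 was the lowest of the 6, and the groups overlapped through replicate 3. The change was -0.100 ± 0.060 (SE; 0.933-fold, 95% interval 0.847 to 1.03, limma adjusted p = 0.996), and it was -0.038 without USFKD array 2.

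The last pair act on quinones and hydrogen peroxide. Nqo1, the quinone reductase most often used to read NRF2 activity (cluster 10581538), had 0.018, -0.134 and -0.020 on the USFKD arrays and -0.018, 0.146 and 0.070 on the Control arrays. It had the largest change of the 10 genes, -0.112 ± 0.061 (SE; 0.926-fold, 95% interval 0.840 to 1.02, limma adjusted p = 0.996), but the groups overlapped and both were spread (SD 0.079 in USFKD and 0.082 in Control). The change was -0.067 without USFKD array 2, -0.072 without Control array 2 and -0.153 without Control array 1.

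Cat, the peroxisomal catalase (cluster 10485466), had 0.022, 0.034 and 0.015 on the USFKD arrays and -0.090, -0.015 and -0.090 on the Control arrays. All USFKD values were above all Control values, with a gap of 0.029. The change was 0.088 ± 0.042 (SE; 1.06-fold, 95% interval 0.993 to 1.14), with an unadjusted p of 0.0711 and an adjusted p of 0.996 in limma. Leaving out 1 array at a time gave 0.076 to 0.114.

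**Figure D2:**
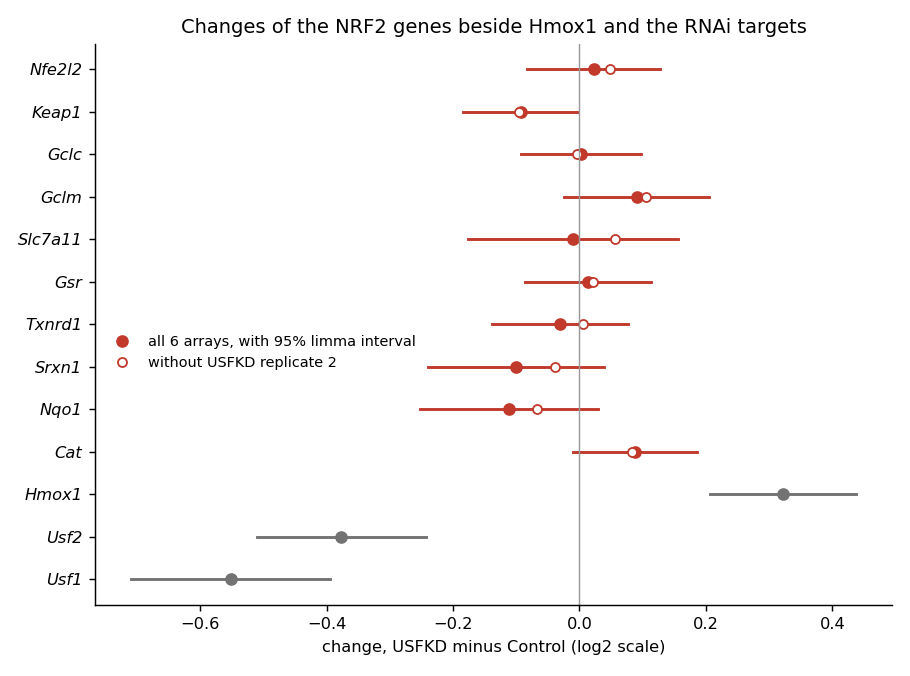
Change on the log2 scale (USFKD minus Control, horizontal axis) of the 10 genes (red), Hmox1, Usf2 and Usf1 (grey); filled circles are fits to all 6 arrays with limma 95% intervals, open circles the fits of the 10 genes without USFKD replicate 2. The 10 changes lie between -0.112 and 0.090, and those of Slc7a11, Txnrd1 and Gclc cross 0 without that array.

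Hmox1 lay outside the range of these genes. It had 0.114, 0.134 and 0.236 on the USFKD arrays and -0.194, -0.174 and -0.114 on the Control arrays, a change of 0.32 ± 0.05 (SE; 1.25-fold) with a limma adjusted p of 0.348. The list, which leaves out Hmox1, was chosen with earlier results of these data known, so this contrast is a description. The difference between Hmox1 and the other NRF2 targets was not tested.

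Within the arrays, the genes did not keep to one side. The median of the 10 genes was 0.0032, -0.036 and 0.013 on USFKD arrays 1, 2 and 3, and -0.0016, -0.0098 and -0.0031 on the Control arrays. On USFKD array 2 the values of Srxn1, Slc7a11, Nqo1 and Txnrd1 were between -0.203 and -0.106, while Cat, Gclm, Gclc and Gsr were above 0. Over the 6 arrays USFKD array 2 was the lowest for 5 of the 10 genes, against 28.4% of all genes. On USFKD array 3, Gclm (0.122), Slc7a11 (0.120), Nfe2l2 (0.072) and Gsr (0.055) had their highest value of the 6 arrays, and Hmox1 did so as well. USFKD array 3 was the highest for 4 of the 10 genes, against 14.2% of all genes. Of the 10 genes 8 were above 0 on USFKD array 3, 6 on USFKD array 1 and 4 on USFKD array 2. On each Control array 4 were above 0. Because of the centring, these counts are not independent between arrays. The median over all genes was -0.0072 on USFKD array 3, -0.00079 on USFKD array 1 and 0.0072 on USFKD array 2. It was 0.00040 to 0.0020 on the Control arrays. USFKD array 2 also had a median of 0.071 over clusters of the dimmer class and -0.028 over the brighter class, and the part of this in the values of single genes was not tested. Centring each array within the 2 classes, a setting chosen after seeing the data, turned no sign among the 10 genes.

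**Figure D3:**
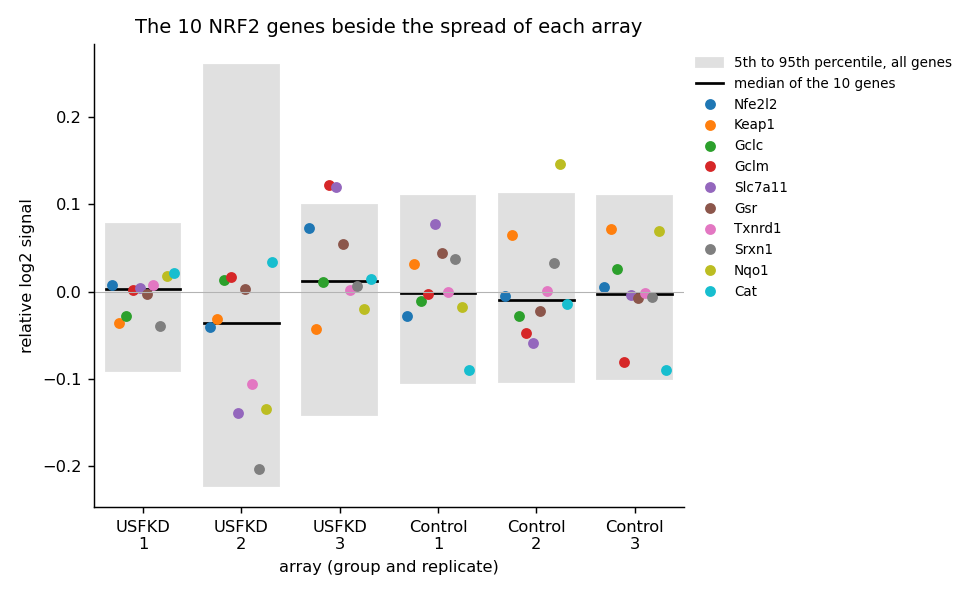
Relative log2 signal (vertical axis) of the 10 genes on each of the 6 arrays (horizontal axis), with the median of the 10 as a black line and the 5th to 95th percentile of all genes as a grey box. The genes fall on both sides of 0 on each array, the box is widest on USFKD array 2, and Gclm and Slc7a11 on USFKD array 3 and Nqo1 on Control array 2 lie above it.

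Nfe2l2 was set against every other gene over the 6 arrays. Of 16582 genes, those with the highest Pearson correlation to it were Plbd2 (0.992), Chmp2b (0.992) and Snora70 (0.987). They were picked as the highest over 6 arrays that share the spread described above, so this is a description. Their changes were 0.030, 0.054 and 0.036, with limma adjusted p of 0.996 each. Snora70 is a small nucleolar RNA with near-identical copies, so its signal may not come from 1 gene.

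The rest of the pathway was read from 7 lists of 89 genes, of which 81 were measured by name. None of the 81 passed an adjusted p of 0.05 in limma, where 0.00603% of all genes passed, and 0 were at an unadjusted p under 0.05, where 4.25% of all genes were. Their median change was 0.0076, with 47 above 0 and 34 below. The groups were apart for 9 of them, 4 higher and 5 lower, where 10.3% of all genes were apart (4.33% higher, 5.95% lower).

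Among the 8 factors that pair or compete with NRF2 on DNA, the median change was 0.0088. The small MAF protein Maff had a change of -0.095 ± 0.051 (SE) and the repressor Bach1, which competes for the same elements, -0.051 ± 0.042. Of the 10 genes that act on the stability of NRF2, the median was -0.0084. Rbx1, the RING subunit of the CUL3 ligase, had -0.091 ± 0.042. Sqstm1, the autophagy receptor p62, which sequesters KEAP1 and is itself an NRF2 target, had 0.045 ± 0.040.

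Of the 20 measured genes of glutathione metabolism, out of 22, the median change was 0.025. Those with the smallest p were Mgst2, a microsomal glutathione transferase (-0.099 ± 0.043, SE), and Gpx8, a peroxidase of the endoplasmic reticulum (0.128 ± 0.069). The 14 measured thioredoxin and peroxiredoxin genes, out of 16, had a median of 0.010, with the mitochondrial reductase Txnrd2 at -0.090 ± 0.046 and the methionine sulfoxide reductase Msrb2 at -0.077 ± 0.043. The 4 superoxide dismutase genes, with the copper chaperone Ccs counted among them, had a median of -0.017, with Ccs at -0.074 ± 0.059 and the mitochondrial Sod2 at -0.029 ± 0.041.

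The 8 measured genes of NADPH supply, out of 9, had a median of 0.017. The pentose phosphate enzyme Taldo1 had a change of -0.067 ± 0.045 (SE) and the mitochondrial folate enzyme Mthfd1l 0.064 ± 0.048. Detoxification and efflux genes, 17 measured of 20, had a median of 0.021, with the carbonyl reductase Cbr1 at -0.102 ± 0.064 and the conjugate exporter Abcc3 at 0.074 ± 0.049. All 14 genes named from the 7 lists had a limma adjusted p of 0.996. The USFKD arrays lay apart from the Control arrays for Rbx1, Mgst2, Txnrd2, Msrb2 and Taldo1 (lower) and for Sqstm1 and Abcc3 (higher). Over all genes 10.3% were apart, and these genes were named for their small p.

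**Figure D4:**
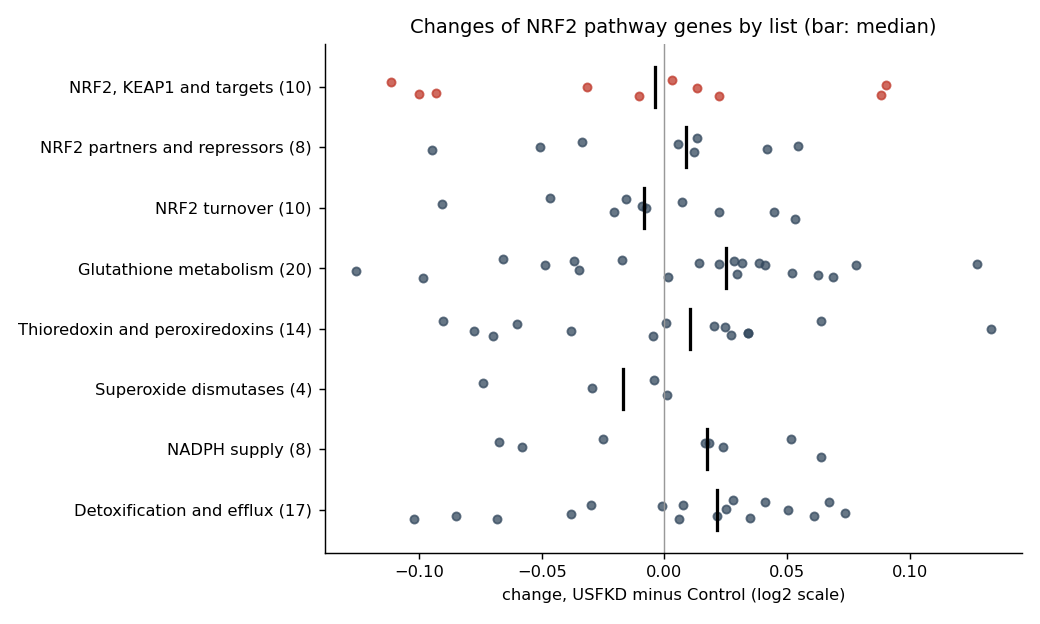
Change on the log2 scale (USFKD minus Control, horizontal axis) of the 10 genes (red) and of 81 other genes of the NRF2 pathway in 7 lists (blue), 1 point per gene, with the number of genes in brackets and the median as a bar. Each list has genes on both sides of 0, and the medians of the 7 lists lie between -0.017 and 0.025.

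The promoters were read for the elements of both kinds of factor. RefSeq windows of GRCm38.p6, from 250 bases before to 50 after a start, were on hand for 8 of the 10 genes in 10 windows (3 for Txnrd1). Gclc and Gsr had no entry. The E-box bound by USF factors (CACGTG, the same on both strands) was in the windows of 0 of the 8 genes and of 8.09% of all 27025 genes with a window. A core of the antioxidant response element (TGACNNNGC, either strand) was in those of 4 of the 8 genes, Nfe2l2, Gclm, Txnrd1 and Srxn1, and of 14% of all genes. In Srxn1 it lay after the start, at bases 29 to 37. A match is no proof of a site, and elements farther from the start were not searched.

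The 250 bases before the start are given below for the genes with such a core there and for Keap1 and Cat, the genes with the widest gap between the groups, 5′ to 3′ on the strand of the gene, with the core in capitals. That of Nfe2l2 (chr2:75704664-75704913, minus strand) has the core 240 to 232 bases before the start. That of Gclm (chr3:122245307-122245556, plus strand) has it on the opposite strand, 134 to 126 bases before the start. That of the second Txnrd1 start (chr10:82858956-82859205, plus strand) has it on the opposite strand, 92 to 84 bases before the start. Those of Keap1 (chr9:21239333-21239582, minus strand) and Cat (chr2:103485154-103485403, minus strand) have none.
Nfe2l2: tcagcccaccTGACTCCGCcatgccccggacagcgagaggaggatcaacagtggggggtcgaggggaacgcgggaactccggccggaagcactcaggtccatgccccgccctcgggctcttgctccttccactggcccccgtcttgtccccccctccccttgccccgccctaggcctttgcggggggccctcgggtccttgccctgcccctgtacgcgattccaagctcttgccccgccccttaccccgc
Gclm: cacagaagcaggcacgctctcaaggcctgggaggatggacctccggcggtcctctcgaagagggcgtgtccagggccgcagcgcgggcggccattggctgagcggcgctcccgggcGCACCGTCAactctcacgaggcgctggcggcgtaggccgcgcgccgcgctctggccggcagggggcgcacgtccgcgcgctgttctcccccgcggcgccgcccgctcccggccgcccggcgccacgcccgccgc
Txnrd1: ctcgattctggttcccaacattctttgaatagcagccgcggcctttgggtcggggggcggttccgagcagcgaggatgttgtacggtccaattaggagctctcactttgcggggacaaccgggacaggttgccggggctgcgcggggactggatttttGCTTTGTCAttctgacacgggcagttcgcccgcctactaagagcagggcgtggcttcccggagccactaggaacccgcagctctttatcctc
Keap1: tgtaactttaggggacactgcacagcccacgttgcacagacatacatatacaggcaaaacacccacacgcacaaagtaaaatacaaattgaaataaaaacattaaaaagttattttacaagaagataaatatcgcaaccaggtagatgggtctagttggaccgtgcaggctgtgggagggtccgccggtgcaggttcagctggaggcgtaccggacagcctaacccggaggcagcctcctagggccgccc
Cat: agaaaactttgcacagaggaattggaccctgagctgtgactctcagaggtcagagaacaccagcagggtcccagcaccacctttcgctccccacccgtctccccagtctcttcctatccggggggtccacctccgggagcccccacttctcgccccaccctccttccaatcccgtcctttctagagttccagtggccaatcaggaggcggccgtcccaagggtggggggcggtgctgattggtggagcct
Of the 3 genes whose groups were apart, Gclm had a core and Keap1 and Cat had none, where 14% of all genes had one. None of the 3 had an E-box in its window, where 8.09% of all genes had one. The 3 genes were picked by their values, so this describes them only.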

How the data were processed

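The authors deposited 1 table of signals, read here as log2, for 22891 transcript clusters on 6 arrays. Per the labels' protocols, RNA came from a Qiagen RNeasy kit, was amplified with Ambion's WT Expression Kit and labelled with Affymetrix's WT Terminal Labeling Kit. How background, normalization and filters were handled is not given in the sources used here. Neither is the log base, which was inferred as 2 from the rounding steps (tolerance 0.05 of a step). The folds rest on that base. The median of each cluster over the arrays was 0, so levels are lost. The same steps placed 9975 clusters in the brighter class, 12915 in the dimmer one and 1 in neither. A chance match can misplace a few.

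The platform annotation gave 18087 clusters 1 symbol, 1145 several and 3659 none. Clusters with 1 symbol were averaged to 16583 genes. Of these clusters 18023 matched the RefSeq table by gene identifier and 0 symbols changed.

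Groups and replicate numbers came from the sample titles. The change of each gene was fitted in limma 3.58.1 under R 4.3.3 with lmFit and eBayes (USFKD minus Control, 4 residual and 3.79 prior degrees of freedom), with Benjamini-Hochberg adjustment over all genes. The fit was tested on simulated data. The members and lists were chosen with earlier results of these data known, so no test was made over a list. Named were the 10 genes, Usf1, Usf2, Hmox1, the 2 genes with the smallest p of each other pathway list and the 3 genes most like Nfe2l2. Precision is limited by the number of arrays, with a standard error of 0.0561 at the median gene. Alternatives were another normalization or centring, the brighter class alone, robust variance, array weights, single clusters, clusters of several genes, a replicate block and leaving out each array. Python 3.11.15, SciPy 1.17.1 and matplotlib 3.10.9 made the permutation tests and figures.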

Additional observations from a re-analysis of the deposited data

How the results depend on the processing

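With 1 exception, no setting brought a gene of the 10 past an adjusted p of 0.05 in limma. With array weights the count was 1, Keap1 (-0.097, limma adjusted p = 0.0481; the range over the other settings is 0.658 to 1.00), 4 of the other pathway genes passed, 2 of the 10 were at an unadjusted p under 0.05, and Usf1 (-0.62) and Usf2 (-0.46) passed. The weights were estimated without full convergence. Of all 16583 genes, 1111 passed in that fit and 4356 were at an unadjusted p under 0.05. That fit gave USFKD array 1 a weight of 33, so its USFKD mean is nearly that of 1 array. In it the signs of Gclc (-0.027), Txnrd1 (0.0081), Gsr (-1.6e-05) and Slc7a11 (0.012) turned. With quantile normalization 2 of the 10 were at an unadjusted p under 0.05, where 897 of all 16583 genes were, and Slc7a11 turned to 0.018. With the replicate block 0 of the 10 were at that p, where 636 of all genes were, and no gene of all passed the adjusted threshold. Same-numbered arrays deviated with correlations of 0.0031, 0.082 and 0.036, none over 0.1, so they were not treated as pairs, and not every array correlated best with its own number.

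Leaving out 1 array at a time, the count of the 10 genes at an unadjusted p under 0.05 was 0 to 2. Of all 16583 genes 369 to 1248 were at that p in these fits. The count past the adjusted threshold was 0 for the 10 genes and 0 for the other pathway genes. The median change of the 10 genes was -0.028 to 0.013. Usf1 lay between -0.62 and -0.49 and Usf2 between -0.43 and -0.35. Nfe2l2 lay between -0.0072 and 0.049, Gclc between -0.0089 and 0.018, Txnrd1 between -0.051 and 0.0056, Gsr between -0.0049 and 0.033 and Slc7a11 between -0.073 and 0.057. Keap1, Nqo1, Gclm, Srxn1 and Cat kept their sign in every setting that measured them, and Keap1, Nqo1 and Srxn1 were not measured in the fit to the brighter class alone. The cause of these differences was not tested. A variance trend on the mean level was not run because centred values hold no level. Robust variance and centring within the brightness classes were chosen after seeing the data.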
